A study of Xenopus laevis with 4 samples.

Results

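Clustered m5C sites are here neighbouring 5-methylcytosines of 1 gene that lie 6 to 50 nt apart in the genome. In the list of methylated cytosines of Xenopus laevis stage 0 embryos, the sites were sorted by position within each gene, chromosome and strand, sites 1 nt from another site of the gene were left out (468 of 16233), and each consecutive pair at 6 to 50 nt was taken. This gave 647 clustered pairs out of 8662 consecutive pairs. They held 1262 sites, which is 7.77% of the list, and lay in 575 of 7140 genes. A site was called only at a level of at least 10% and a coverage of at least 20 reads, so the pairs were chosen by measured values, namely the level, coverage and position of their sites. Their existence and their distance range are therefore descriptions and were not tested.

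Polyadenylated RNA of wild-type X. laevis was sequenced after bisulfite conversion, which leaves 5-methylcytosine as C and turns other cytosines into a base read as T. The methylation level of a site is the share of C reads among its C and T reads, and the coverage is the number of those reads. Stage 25 and stage 0 had 2 libraries each, both from pools of embryos, and the authors combined the libraries of a stage in 1 list. The stage 25 titles carry the prefix XT and the stage 0 titles XL, whereas the organism label of all 4 libraries is X. laevis. The study calls its replicates technical in the text and biological in a legend, so the kind of replicate is not settled here. The lists hold no expression values, so the stage labels could not be checked against marker genes. Coordinates refer to v9.2 of the X. laevis genome and may be 1 nt off because the sources used here do not say whether they count from 0 or 1. An annotation of that assembly was not used here, so exon, UTR and RNA structure were not analysed here.

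In animal mRNA, m5C is placed mainly by NSUN2 and NSUN6. NSUN2 prefers cytosines followed by a G-rich stretch, often at the 5′ end of the stem of a hairpin, and NSUN6 prefers cytosines followed by TCCA that sit in a loop. At fertilization the frog embryo holds mRNAs made in the oocyte, and it relies on them until its own genome is transcribed. X. laevis is allotetraploid, with an L and an S subgenome, so many genes exist as a pair of homeologs named with the suffix L or S.

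The letters around a site show which kind of target it resembles. The supplementary table of sites conserved between the frog species gives the 4 bases after the methylated cytosine for 1223 sites, all of them in the stage 0 list, and 113 of these were clustered sites. Only its letters were used. Both sites had letters in 5 pairs, and these pairs are shown because they place 2 targets side by side. Capital C marks each methylated cytosine, lower case gives the 4 bases after it, and n stands for bases that the sources used here do not give. For the pair of gna11.L, 50 nt apart, each site stands on its own line.
rabgap1l.L: CgaggnCgaga
marcks.L: CggggnnnnnnCtcca
LOC108708548: CtccannnnnnnCtcca
brpf1.L: CtgagnnnnnnnnnnnnnCtggg
gna11.L, 5′ site: Cggct
gna11.L, 3′ site: Cgggt

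The pair of rabgap1l.L, which encodes a GTPase-activating protein for Rab proteins, lay 6 nt apart at 87989350 and 87989344 on the minus strand of chromosome 4L. Both sites were followed by purines, GAGG at the 5′ site and GAGA at the 3′ site. The 5′ site was at 70.5% (95% Wilson interval 61.2 to 78.4, 105 reads) and the 3′ site at 11.2% (6.53 to 18.6, 107 reads). The 5′ site was higher (Fisher's exact test, two-sided, adjusted p = 1.11e-18). This test and all others within pairs were adjusted by the Benjamini-Hochberg method over all 8662 consecutive pairs of the list.

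The pair of marcks.L, a substrate of protein kinase C that binds actin and membranes, was the only one of the 5 to combine a G-rich site with a TCCA site. It lay 11 nt apart at 77044099 and 77044088 on the minus strand of chromosome 5L. The 5′ site, followed by GGGG, was at 38.3% (34.5 to 42.3, 593 reads), and the 3′ site, followed by TCCA, was at 13.8% (11.5 to 16.3, 785 reads). The 5′ site was higher (Fisher's exact test, adjusted p = 1.03e-24).

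The other 3 pairs joined 2 sites of like letters. In LOC108708548, both sites were followed by TCCA, 12 nt apart at 137075462 and 137075450 on the minus strand of chromosome 2L. Their levels were 14.3% (8.37 to 23.3, 84 reads) at the 5′ site and 35.0% (27.1 to 43.7, 123 reads) at the 3′ site, so even identical letters went with different levels (Fisher's exact test, adjusted p = 0.00263). In brpf1.L, a scaffold of a histone acetyltransferase complex, the sites at 135038701 and 135038683 of the minus strand of 4L were 18 nt apart. The 5′ site was at 37.2% (121 reads) and the 3′ site at 15.9% (107 reads), with an adjusted p of 0.000751 by Fisher's exact test. In gna11.L, a G protein alpha subunit, the sites at 111415880 and 111415930 of the plus strand of 1L were at 23.4% (1284 reads) at the 5′ end and 85.7% (900 reads) at the 3′ end. The 3′ site of gna11.L was the higher one (Fisher's exact test, adjusted p = 4.26e-193).

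Over the 113 clustered sites with letters, 23 (20.4%, Wilson interval 14.0 to 28.7) matched TCNA in the 4 bases after the cytosine, read 5′ to 3′ on the RNA, against 227 of the 1110 other sites with letters (20.5%, 18.2 to 22.9). The interval of the clustered sites holds the share of the others. Among the clustered sites with letters, TCCA was the most frequent ending, with 22 sites at a median level of 21.01%. GGGA followed with 10 sites at 36.7%, AGGG with 9 sites at 28.1% and AGGA with 8 sites at 31.5%. The 7 sites with GGGG had a median of only 15.5%, against 28.0% in the 49 other sites with these letters. Among sites without TCNA, all 3 bases after the cytosine were G in 20 of 90 clustered sites (22.2%) and in 116 of 883 other sites (13.1%). That difference was not tested, as sites of a conserved set are not replicates. The median level of clustered sites was 20.8% with TCNA and 30.5% without it, and that of the other sites was 21.2% with TCNA and 28.4% without it. Letters were at hand for 8.95% of clustered sites and 7.41% of the others, all of them sites shared by both frogs. These shares describe that conserved subset and do not stand for the whole list. In the paper, sites with the TCNA ending made up a smaller share of maternal m5C in most species.

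The distances between the sites of a pair spread over the whole range that the rule allows. The median was 26 nt, with quartiles at 15 and 37.5 nt. The most frequent distances were 9 nt, with 24 pairs, and 27 nt, with 23 pairs, and the rarest was 10 nt, with 7 pairs. Distances that are multiples of 3 made up 242 pairs (37.4%, Wilson interval 33.8 to 41.2). Remainders of 1 and 2 after division by 3 made up 195 pairs (30.1%, 26.7 to 33.8) and 210 pairs (32.5%, 29.0 to 36.2). An even share of 1 in 3 lies just below the lower bound of 33.8%. Among the 674 pairs 51 to 150 nt apart, 34.1% of distances were multiples of 3, and among all pairs over 50 nt apart 34.2%. Both shares lie inside the interval of the clustered pairs, so the excess over those spacings was not resolved. No test was made. At the lower edge of the rule, 11 pairs just outside at 5 nt had median levels of 40.1% for the higher and 13.8% for the lower site, and 12 pairs just inside at 6 nt had 38.1% for the higher and 15.9% for the lower site. At the upper edge, 11 pairs just inside at 50 nt had 28.7% for the higher and 15.4% for the lower site, and 10 pairs just outside at 51 nt had 20.6% for the higher and 12.7% for the lower.

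**Figure D1:**
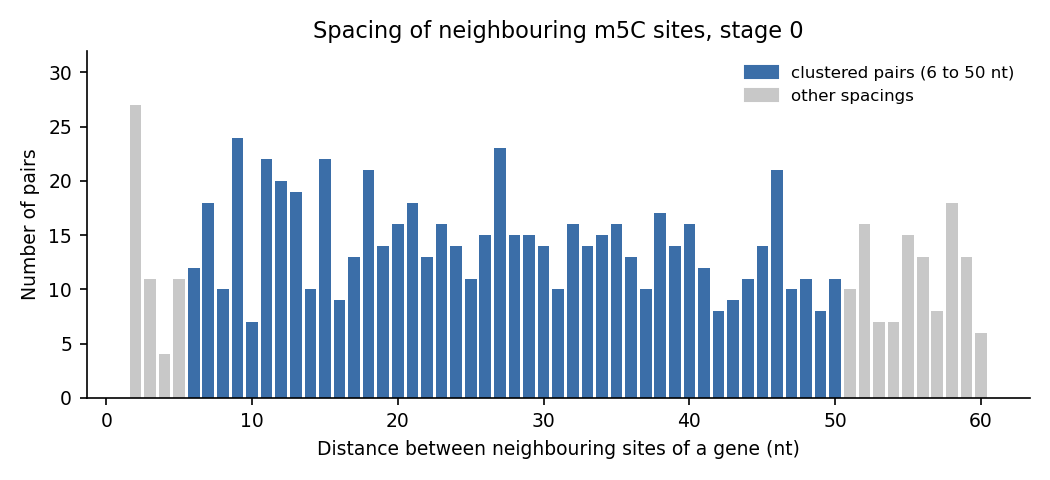
Number of neighbouring site pairs of a gene (y axis) at each distance in nt (x axis) at stage 0, with the clustered pairs of 6 to 50 nt in blue and other spacings in grey. The blue bars vary between 7 pairs at 10 nt and 24 pairs at 9 nt.

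The clustered pairs were spread over the genome. Of the pairs, 308 were on plus and 339 on minus strands. Of the sites on L chromosomes 7.61% were clustered (682 of 8961), and of those on S chromosomes 7.89% (497 of 6303). By chromosome, the share was between 5.67% on 7L and 9.32% on 6S, and 43 of the pairs lay on unplaced scaffolds. 512 genes held 1 clustered pair, 55 held 2, 7 held 3 and 1 held 4. Genes with a clustered pair had a median of 4 sites, against 3 in the other genes with at least 2 sites, and 101 of them had no sites beyond those of their pair. Of 574 gene names, 487 matched RefSeq names of the assembly Xenopus_laevis_v10.1, and 484 of these are annotated as protein coding.

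The levels of clustered sites lay close to those of the rest of the list. Clustered sites had a median level of 21.2% (quartiles 13.8 and 37.2), and the other 14971 sites had 21% (13.9 and 37.6). The means were 29.6 ± 21.2% over clustered sites and 29.3 ± 21.1% over the others, where the SD is the spread between sites and not between replicates. Levels of at least 50% were reached by 208 clustered sites (16.5%, Wilson interval 14.5 to 18.6) and by 16.3% of the others (15.7 to 16.9). At least 80% was reached by 57 clustered sites (4.52%) and by 4.803% of the others. The coverage behind a site had a median of 161.5 reads among clustered sites, with a range of 20 to 49613, and a median of 145 among the others. Counting error alone left a single level uncertain by a median of ± 5.99 percentage points among clustered sites and ± 6.31 among the others.

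Distance within the range made little difference either. Distances are genomic and include any intron between the sites. Pairs more than 50 nt apart may therefore lie closer in the mRNA, which was not analysed. The higher site of a pair had a median of 33.8% over clustered pairs and 33.0% over the 7962 pairs more than 50 nt apart, and the lower site 14.8% over clustered pairs and 14.7% over those farther apart. In the 71 pairs at 6 to 10 nt the medians were 31.4% for the higher and 13.9% for the lower site, and in the 115 pairs at 41 to 50 nt they were 34.1% for the higher and 15.2% for the lower. The lower medians lay close to the minimum of 10% that a call requires.

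**Figure D2:**
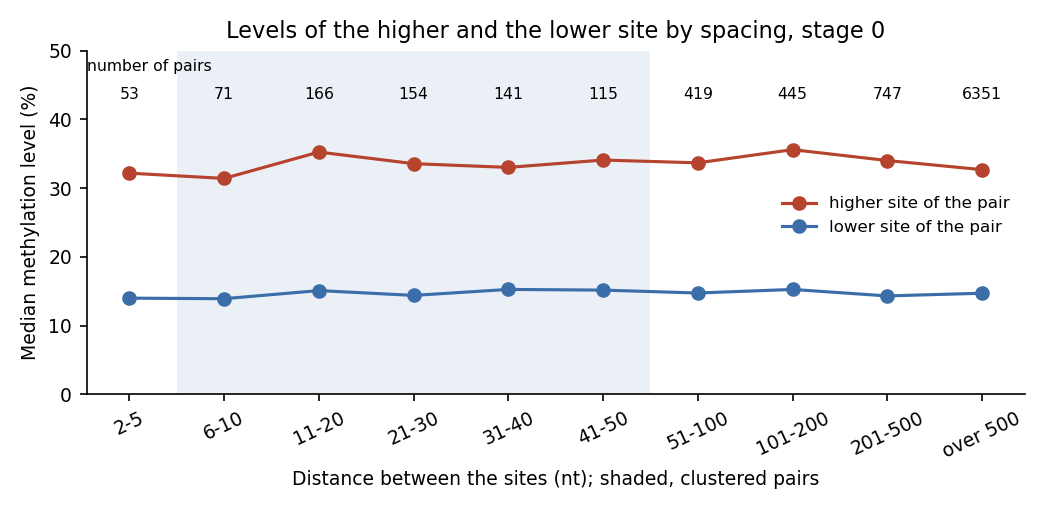
Median methylation level in percent (y axis) of the higher site (red) and the lower site (blue) of neighbouring pairs in bins of distance in nt (x axis) at stage 0, with the clustered pairs shaded and the number of pairs above each bin. Within the shaded range the higher site stays between 31.4% and 35.3% and the lower site between 13.9% and 15.3%.

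The 2 sites of a clustered pair often had different levels. In 391 of 647 pairs (60.4%) the levels differed by Fisher's exact test at an adjusted p below 0.05, beside 57.8% of all 8662 consecutive pairs and 57.6% of those over 50 nt apart. The share is therefore near that of neighbouring sites in general. Of all 647 clustered pairs, called or not, 193 were called with a higher 5′ site and 198 with a higher 3′ site. Of all 8662 consecutive pairs, 2468 (28.5%) were called with a higher 5′ site and 2539 (29.3%) with a higher 3′ site. Neither end was favoured, since over all clustered pairs the 5′ site was higher in 326, the 3′ site in 320, and both were equal in 1, fam134a.L, with 10.5% at each. The median 5′ level was 21.5% and the median 3′ level 20.9%. The median difference was 15.1 percentage points in clustered pairs and 13.6 in those over 50 nt apart. As both libraries were pooled by the authors, these tests cover counting error only, and reads that span both sites count in both, which the test does not take into account.

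Among listed sites, all at 10% or more, the level of 1 site did not go along with the level of its neighbour. Cytosines under 10% do not enter, so a relation that includes them was not tested. Across the 647 pairs, which share gene, libraries and partly reads, Spearman's rho of the levels was 0.0022 and Pearson's r was 0.013, and rho was 0.0085 over pairs more than 50 nt apart. By spacing, rho lay between -0.13 at 6 to 10 nt and 0.047 at 21 to 30 nt. The coverages, in contrast, went together, with a rho of 0.951 in clustered pairs and 0.619 in those over 50 nt apart. The coverages of a pair differed by 1.5 times or more in 93 clustered pairs (14.4%) and in 60.6% of pairs over 50 nt apart, and most in nup35.S, where the 3′ site had 5.80 times the reads of the 5′ site.

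Most clustered pairs combined low or moderate levels. Both sites were under 20% in 137 pairs (21.2%, and 22.5% of pairs over 50 nt apart). Both were under 50% in 453 pairs (70.0%, and 70.7% of pairs over 50 nt apart). One site at 50% or more stood next to one under 20% in 105 pairs (16.2%, and 15.3% of pairs over 50 nt apart), and both reached 50% in 19 pairs (2.94%, and 2.78% of pairs over 50 nt apart). The difference was at least 50 percentage points in 83 pairs (12.8%, and 12.5% of pairs over 50 nt apart). Whether a pair was called depended on its coverage. Among pairs whose less covered site had 20 to 49 reads 36 of 84 (42.9%) were called, and among those with at least 500 reads 96 of 121 (79.3%). The 256 pairs without a call had a median difference of 4.17 points and a median smaller coverage of 88 reads, against 26.7 points and 225 reads in called pairs, so equal levels were not shown for them.

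**Figure D3:**
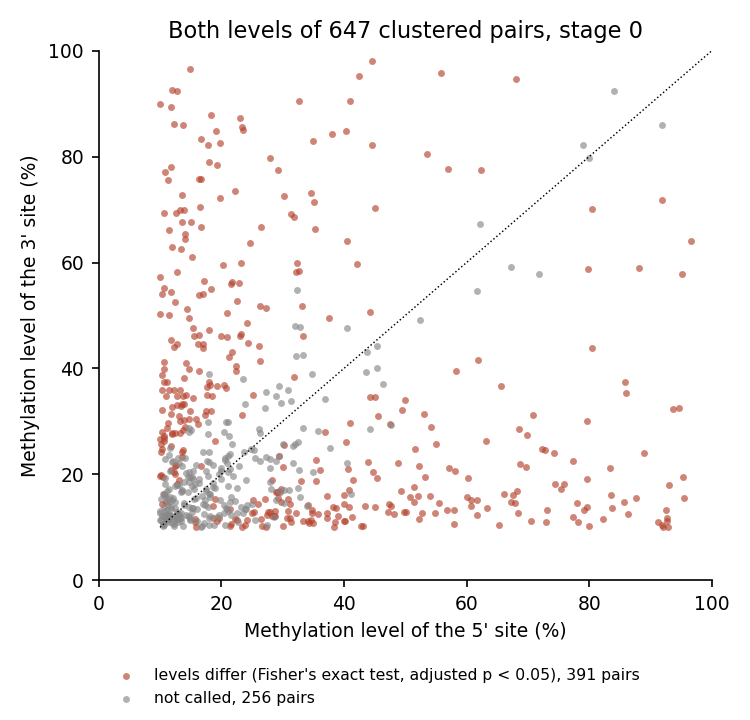
Methylation level in percent of the 3′ site (y axis) against that of the 5′ site (x axis) in the 647 clustered pairs at stage 0, with the 391 pairs whose levels differed by Fisher's exact test in red, the 256 others in grey and the dotted line at equal levels. The points fill both axes and leave the upper right sparse, where 19 pairs have both sites at 50% or more.

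Of the clustered pairs, those of kctd5.L, tram1.S, kcmf1.L, chst14.L and spire1.S had the highest Wilson lower bounds at both sites, ranked by the smaller bound of a pair and with 1 pair a gene. kctd5.L, an adaptor of a cullin ubiquitin ligase, had 79.0% (76.1 to 81.6, 837 reads) at its 5′ site and 82.2% (79.1 to 85.0, 653 reads) at its 3′ site, 13 nt apart at 96838051 and 96838064 of the plus strand of 9_10L. These levels were not distinguished (Fisher's exact test, adjusted p = 0.193), and 18 nt further 3′ a site of kctd5.L stood at 11.7% (815 reads), lower than its neighbour with an adjusted p of 1.66e-175 by Fisher's exact test. The cluster thus went over from high to low within 31 nt. tram1.S, a protein of the endoplasmic reticulum translocation site, had a 5′ level of 84.1% (69 reads) and a 3′ level of 92.3% (52 reads) at 31 nt. kcmf1.L, a ubiquitin ligase, had a 5′ level of 91.8% (49 reads) and a 3′ level of 86.05% (43 reads) at 27 nt, and its 3′ site had the letters Cagga. chst14.L, a sulfotransferase of dermatan sulfate synthesis, had a 5′ level of 80% (60 reads) and a 3′ level of 79.7% (69 reads) at 42 nt. None of these 3 pairs passed the test, and with 43 to 69 reads a site their intervals span more than 10 points. Outside the 5 ranked pairs, chst14.L held a second pair further 3′, at 93113987 and 93114001, 14 nt apart. Its levels were 35.3% (119 reads) at the 5′ site and 66.4% (110 reads) at the 3′ site (Fisher's exact test, adjusted p = 9.02e-06). spire1.S, an actin nucleator known from mouse oocytes, was the exception among the 5, with 68.0% (2356 reads) at its 5′ site and 94.7% (2701 reads) at its 3′ site, 12 nt apart (Fisher's exact test, adjusted p = 1.41e-142).

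The largest differences came near the limit that the 10% minimum of a call leaves, with one site nearly fully methylated and its neighbour nearly at the minimum. With the 5′ site higher, LOC108702842, annotated as a long noncoding RNA, had a 5′ level of 92.9% (467 reads) and a 3′ level of 10.1% (367 reads) at 22 nt, a difference of 82.9 percentage points (Fisher's exact test, adjusted p = 5.86e-144). taok2.L, a protein kinase, had a 5′ level of 92.1% (38 reads) and a 3′ level of 10% (50 reads) at 15 nt, with an adjusted p of 7.85e-15 by Fisher's exact test. dact1.L, a regulator of Wnt signalling through Dishevelled, had a 5′ level of 92.8% (1340 reads) and a 3′ level of 11.2% (1309 reads) at 48 nt, and its p was too small for the computation to represent. pcnt.L encodes pericentrin, a scaffold of the centrosome. Its levels were a 5′ level of 91.9% (111 reads) and a 3′ level of 10.4% (115 reads) only 9 nt apart (Fisher's exact test, adjusted p = 6.19e-38).

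With the 3′ site higher, the order of levels was the reverse at similar sizes. thada.L had 15.0% (167 reads) at the 5′ site and 96.6% (119 reads) at the 3′ site, 39 nt apart (Fisher's exact test, adjusted p = 1.15e-47). nvl.L, an ATPase of ribosome biogenesis, had a 5′ level of 10% and a 3′ level of 90% on 110 reads each, 7 nt apart at 16565966 and 16565959 on the minus strand of 5L (Fisher's exact test, adjusted p = 4.2e-35). The high site of nvl.L reads Caagg, and so does the high 3′ site of rnf13.S, a membrane-bound ubiquitin ligase. These letters also stood at the higher site of cdc20.L (49.3%). They stood at the lower site of rabgap1l.S (21.2%) and fau.L (21.5%) and, without a call, of atp6v0d1.L (12.7%). rnf13.S had 12.7% (212 reads) at the 5′ site and 92.4% (105 reads) at the 3′ site, 49 nt apart (Fisher's exact test, adjusted p = 6.09e-45). ccdc64.L, an adaptor of the dynein motor, had a 5′ level of 11.9% (278 reads) and a 3′ level of 89.4% (265 reads) at 32 nt (Fisher's exact test, adjusted p = 9.96e-81). In all of these pairs the intervals of the 5′ and the 3′ site lay far apart.

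The most deeply covered pairs give the most precise levels. MGC52578, whose name was not matched in RefSeq, had 89.0% (88.7 to 89.2, 49613 reads) at its 5′ site and 24.0% (23.6 to 24.4, 48153 reads) at its 3′ site, 26 nt apart at 42337449 and 42337475 on the plus strand of 1L. Its p was too small to represent, and the intervals are less than 1 point wide. rpain.S, which carries replication protein A into the nucleus, had a 5′ level of 12.5% (15469 reads) and a 3′ level of 27.8% (15176 reads) at 10 nt (Fisher's exact test, adjusted p = 5e-247). lmnb1.L, lamin B1 of the nuclear envelope, had a 5′ level of 21.7% (12595 reads) and a 3′ level of 43.04% (12503 reads) at 35 nt (Fisher's exact test, adjusted p = 1.44e-286). In both of these the 3′ site was the higher one at a moderate level. LOC108701628 had 18.2% (9247 reads) at a 5′ site with the letters Ctcca and 36.9% (12075 reads) at 38 nt (Fisher's exact test, adjusted p = 5.9e-200). rrm2.1.L, a small subunit of ribonucleotide reductase, had a 5′ level of 27.2% (8254 reads) and a 3′ level of 10.04% (6923 reads) at 37 nt, so here the 5′ site was higher (Fisher's exact test, adjusted p = 4.53e-163).

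Pairs that shared a site joined into longer clusters. The 647 pairs formed 615 clusters, of which 585 had 2 sites, 28 had 3 and 2 had 4. The 92 sites in the 30 clusters of 3 or more had a median level of 23.1%. Within such a cluster the levels spanned a median of 26.0 percentage points, and the span lay between 2.69 and 82.9 points. The highest site was the 5′-most in 11 clusters, the 3′-most in 9 and an inner one in 10.

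The 5 longest clusters, by number of sites and then by coverage, each had their own profile. map3k4.S, a kinase that feeds stress signals into the MAP kinase cascade, held 4 sites at 0, 9, 39 and 75 nt from the first, which lies at 48334593 on the plus strand of 5S. Their levels were 12% (175 reads), 92.7% (218 reads), 11.8% (263 reads) and 31.5% (372 reads). One site thus stood near full methylation between neighbours near the minimum, and the third site reads Cgaag. All neighbouring levels in map3k4.S differed, with adjusted p values of 4.13e-64, 1.81e-78 and 1.42e-08 by Fisher's exact test. samm50.S, part of the machinery that inserts proteins into the outer mitochondrial membrane, held 4 sites at 0, 9, 21 and 44 nt, from 2234739 on the minus strand of 3S. Their levels were 10.98% (82 reads), 34.8% (89 reads), 39.0% (100 reads) and 12.1% (66 reads). The inner sites of samm50.S were not distinguished from each other (Fisher's exact test, adjusted p = 0.751), and both outer ones were lower than their inner neighbours (adjusted p = 0.000593 and 0.000422 by Fisher's exact test).

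In top3a.L, a topoisomerase of DNA repair, the sites at 0, 15 and 42 nt were at 21.1% (1382 reads), 23.4% (1613 reads) and 10.01% (2047 reads). Its first site reads Caggg. The first and the second site were not distinguished (Fisher's exact test, adjusted p = 0.199), and the third was lower than the second (adjusted p = 4.52e-27 by Fisher's exact test). LOC108716586 had 31.4% (1961 reads), 10.9% (1749 reads) and 11.8% (1275 reads) at 0, 7 and 33 nt. lrrc58.S, a protein with leucine-rich repeats, had 14.7% (1156 reads), 49.6% (1225 reads) and 32.1% (1129 reads) at 0, 27 and 34 nt. The peak of LOC108716586 was the first site and that of lrrc58.S the middle one. The flattest of all clusters of 3 was that of abhd17c.L, a depalmitoylating enzyme, at 20.0% (604 reads), 20.6% (654 reads) and 22.7% (572 reads), and it was picked out after its values were seen.

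**Figure D4:**
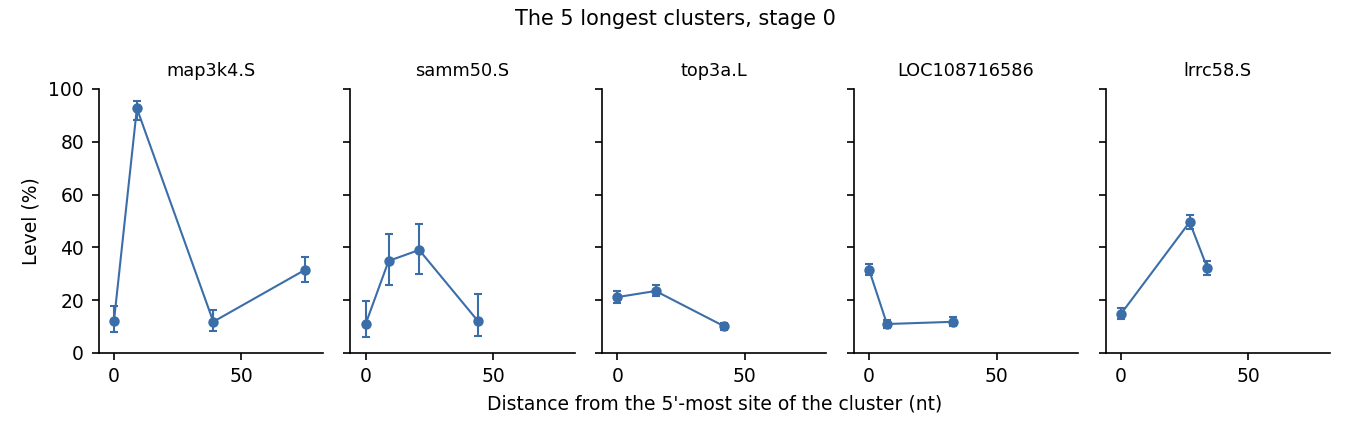
Methylation level in percent (y axis) with 95% Wilson intervals against the distance in nt from the 5′-most site (x axis) in the 5 clusters with the most sites at stage 0. In map3k4.S the second of 4 sites, at 92.7%, stands between neighbours at 12% and 11.8%, and in top3a.L all 3 sites lie between 10.01% and 23.4%.

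Homeologous genes, matched by name, allow clustered pairs of both subgenomes to be set side by side. 276 L copies and 193 S copies held a clustered pair. Of 180 genes with sites in both copies and a clustered pair in at least 1 of them, 13 had clustered pairs in both. The spacing was equal in 4 of the 13, namely actg1, irf2bp2, marcks and ppp1r10, and within 3 nt in 4 more, among them numa1, sec16a and stt3b. Whether the sites correspond between copies rests on the spacing alone. Levels of L and S copies were not tested against each other and are read by their Wilson intervals.

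In marcks the order of the sites was opposite in the copies. marcks.L had 38.3% at the 5′ site and 13.8% at the 3′ site, with the letters printed above. marcks.S, at 58490477 and 58490466 on the minus strand of 5S, had 17.6% (11.5 to 26.2, 102 reads) at the 5′ site and 36.6% (29.2 to 44.6, 145 reads) at the 3′ site. Each difference within a copy passed the test, with an adjusted p of 1.03e-24 in marcks.L and 0.00333 in marcks.S by Fisher's exact test, and neither site's intervals overlapped between the copies.

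In irf2bp2, a transcriptional corepressor, the pairs at 21 nt had a 5′ level of 20.4% (93 reads) and a 3′ level of 14.3% (133 reads) in the L copy, and a 5′ level of 42.5% (80 reads) and a 3′ level of 95.2% (62 reads) in the S copy. The irf2bp2.L pair was not called (Fisher's exact test, adjusted p = 0.372), and the irf2bp2.S pair was (adjusted p = 2.48e-11 by Fisher's exact test). Both sites were higher in irf2bp2.S without overlap of the intervals. The S copy had a further site 13 nt 3′ at 57.9% (76 reads), and the L copy a further pair 11 nt apart at a 5′ level of 14.9% (665 reads) and a 3′ level of 11.4% (788 reads). actg1, a cytoplasmic actin, had a 5′ level of 13.4% (119 reads) and a 3′ level of 11.1% (99 reads) in L and a 5′ level of 32.5% (77 reads) and a 3′ level of 17.5% (63 reads) in S, both pairs 29 nt apart, and no call in either copy. ppp1r10, a nuclear subunit of protein phosphatase 1, had a 5′ level of 21.1% (133 reads) and a 3′ level of 17.7% (96 reads) in L and a 5′ level of 19.6% (56 reads) and a 3′ level of 20.0% (45 reads) in S, 17 nt apart, with overlapping intervals at both sites. By measured level alone, actg1 was the only one of the 4 genes of equal spacing with the same site higher in both copies. Only marcks had a call in both copies, so whether the others keep the order of their sites was not resolved.

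Among the genes of near-equal spacing, stt3b kept the order of its sites. It encodes a catalytic subunit of oligosaccharyltransferase, and had a 5′ level of 11.4% (228 reads) and a 3′ level of 50% (256 reads) at 40 nt in L, where the 5′ site reads Ctcca, and a 5′ level of 18.4% (648 reads) and a 3′ level of 87.9% (697 reads) at 37 nt in S, where the 3′ site reads Cggga. The 3′ site of stt3b was higher in both copies, and its level in S lay above that in L without overlap of the intervals (43.9 to 56.1 in L and 85.3 to 90.2 in S). In sec16a, which organizes endoplasmic reticulum exit sites, the 5′ site was at 78.1% (114 reads) in L and 13.6% (59 reads) in S, whereas the 3′ site was at 14.6% (103 reads) in L and 21.6% (37 reads) in S. numa1, a spindle pole protein, had a 5′ level of 17.9% and a 3′ level of 19.7% in L and a 5′ level of 31.8% and a 3′ level of 25.3% in S on 56 to 87 reads, with no call in either copy.

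**Figure D5:**
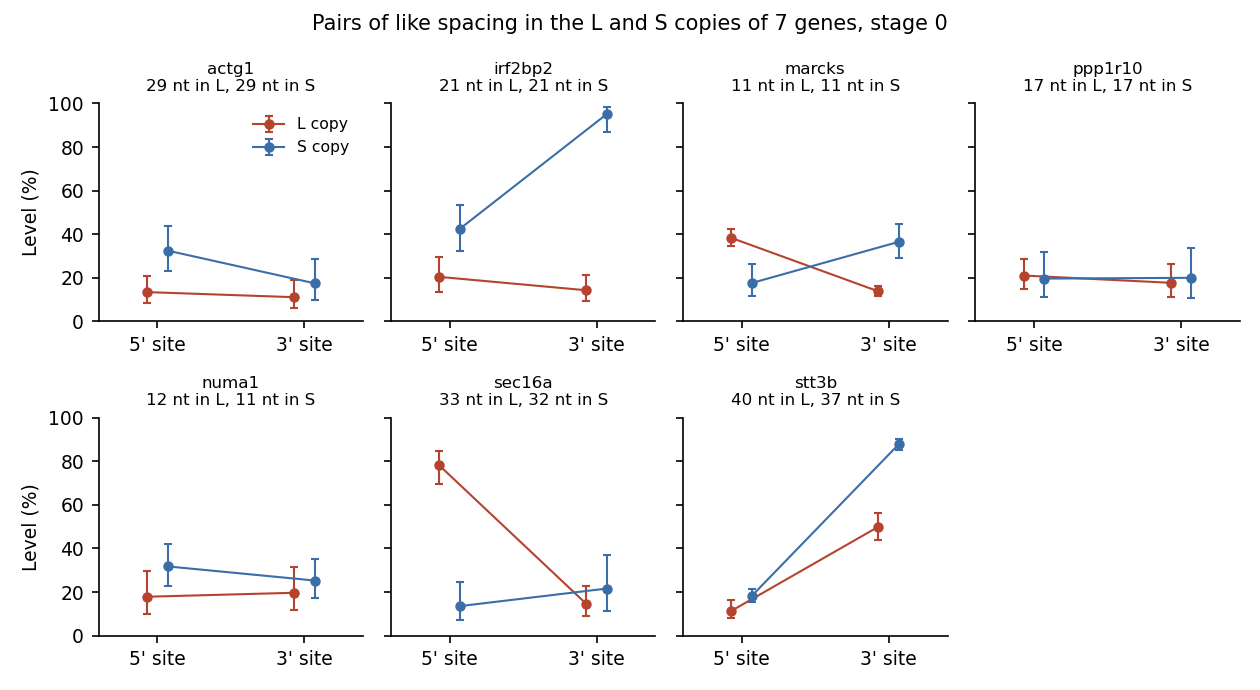
Methylation level in percent (y axis) with 95% Wilson intervals of the 5′ and the 3′ site (x axis) of pairs of equal or near-equal spacing in the L copy (red) and the S copy (blue) of 7 genes at stage 0. The lines of marcks cross, those of stt3b both go up to the 3′ site, and in irf2bp2 the 3′ site is at 95.2% in S and 14.3% in L.

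Clustered pairs occurred in genes of many functions. Of the genes with at least 2 sites, 14.8% held a clustered pair over the whole list. In 12 lists of genes by function, formed from gene names, the share was between 10.1% and 19.6%, on 36 to 148 genes each. These shares are descriptions, as the lists are small and genes are not replicates. Lists formed from names can also hold genes of another function. A thirteenth list, of m5C writers, readers and erasers, had sites in 6 genes and clustered pairs in 0 of the 3 with at least 2 sites.

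Among genes of cell division, 8 of 68 (11.8%) with at least 2 sites held clustered pairs, and 5 of their 8 pairs were called, beside 57.8% of all consecutive pairs. cdc20.L, an activator of the anaphase-promoting complex, had 49.3% (5112 reads) at a 5′ site that reads Caagg and 16.9% (5575 reads) at the 3′ site, 45 nt apart (Fisher's exact test, adjusted p = 2.01e-283). cdk2.L, the cyclin-dependent kinase of S phase, had the opposite order with a 5′ level of 19.3% (1284 reads) and a 3′ level of 36.7% (1261 reads) at 33 nt (Fisher's exact test, adjusted p = 6.2e-22). Genes of genome replication and repair had pairs in 7 of 36 (19.4%), with 7 of 11 pairs called (57.8% of all pairs). orc1.L, the largest subunit of the origin recognition complex, had a 5′ level of 79.1% (3454 reads) and a 3′ level of 13.2% (3609 reads) 15 nt apart, with a p too small to represent. The other gene named from this list is top3a.L, described above.

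Chromatin modifiers and remodellers had pairs in 10 of 77 genes (12.99%), with 7 of 10 pairs called (57.8% of all pairs). smarcd2.S, a subunit of the SWI/SNF remodeller, had a 5′ level of 21.7% (917 reads) and a 3′ level of 56.3% (1195 reads) at 23 nt (Fisher's exact test, adjusted p = 1.71e-58). The 3′ site of smarcd2.S was the higher one. RNA binding, decay and translation genes had pairs in 13 of 112 (11.6%), with 10 of 15 pairs called, read against the same 57.8%. sf3a3.S, a subunit of a splicing factor of the U2 snRNP, had a 5′ level of 83.3% (5038 reads) and a 3′ level of 21.1% (7810 reads) at 49 nt, with a p too small to represent. tnrc6a.S, a partner of Argonaute in silencing by microRNAs, had a 5′ level of 24.8% (1569 reads) and a 3′ level of 24.7% (1193 reads) at 45 nt (Fisher's exact test, adjusted p = 1). The interval of each tnrc6a.S site was under 5 points wide.

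Ubiquitin ligases and deubiquitinases, listed together with conjugating and activating enzymes of ubiquitin, had pairs in 16 of 104 genes (15.4%). Of their 16 pairs, 6 were called (57.8% of all pairs). ube2o.S, a ubiquitin-conjugating enzyme, had a 5′ level of 34.9% (438 reads) and a 3′ level of 82.9% (409 reads) at 30 nt (Fisher's exact test, adjusted p = 2.41e-46). rnf44.S, a RING finger protein, had a 5′ level of 10.04% (568 reads) and a 3′ level of 12.8% (438 reads) at 11 nt, which were not distinguished (Fisher's exact test, adjusted p = 0.268). Motor, centrosome and cytoskeleton genes had pairs in 9 of 60 (15.0%), and 8 of their 10 pairs were called, read against the same 57.8%. kif4a.L, a chromosome-associated kinesin, had a 5′ level of 40.03% (1831 reads) and a 3′ level of 14.3% (1639 reads) at 41 nt, with Cagga at the 3′ site (Fisher's exact test, adjusted p = 6.45e-65). Although its name ends in L, kif4a.L lies on chromosome 8S in the list. cep120.L, a centriole protein, had a 5′ level of 11.4% (463 reads) and a 3′ level of 14.8% (526 reads) at 21 nt (Fisher's exact test, adjusted p = 0.196).

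Kinases had pairs in 15 of 99 genes (15.2%), with 14 of 19 pairs called, and phosphatases in 11 of 56 (19.6%), with 8 of 11 called, and 57.8% of all pairs were called. stk17a.S, a kinase of the death-associated family, had a 5′ level of 69.7% (581 reads) and a 3′ level of 21.5% (615 reads) at 28 nt (Fisher's exact test, adjusted p = 4.95e-64). ppp6c.L, the catalytic subunit of protein phosphatase 6, had a 5′ level of 19.2% (1418 reads) and a 3′ level of 84.9% (1433 reads) at 39 nt (Fisher's exact test, adjusted p = 2.66e-291), and lies on 8S in the list. ppp4r2.S, a regulatory subunit of protein phosphatase 4, had a 5′ level of 15.3% (1273 reads) and a 3′ level of 47.6% (1772 reads) at 40 nt (Fisher's exact test, adjusted p = 1.08e-79). Both phosphatase pairs had the higher level at the 3′ site.

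Zinc finger and BTB genes had pairs in 9 of 56 (16.1%), with 6 of 10 called, and GTPase genes with their regulators in 11 of 99 (11.1%), with 8 of 14 called, and 57.8% of all pairs were called. znf638.S had a 5′ level of 28.7% (355 reads) and a 3′ level of 13.1% (382 reads) at 15 nt (Fisher's exact test, adjusted p = 5.13e-07), and zmym3.L, with Ctcca at its 5′ site, had a 5′ level of 21.2% (335 reads) and a 3′ level of 27.2% (338 reads) at 46 nt with no call. arfgap2.L, a GTPase-activating protein for Arf proteins at the Golgi, had a 5′ level of 44.7% (2063 reads) and a 3′ level of 20.4% (2694 reads) at 23 nt (Fisher's exact test, adjusted p = 1.3e-70). rab11fip5.L, an effector of Rab11 in recycling endosomes, had a 5′ level of 10.3% (517 reads) and a 3′ level of 24.9% (595 reads) at 48 nt (Fisher's exact test, adjusted p = 6.05e-10). Of these GTPase regulators, arfgap2.L had the higher 5′ site and rab11fip5.L the higher 3′ site.

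Solute carriers, channels, pumps and tmem proteins had the lowest share of these 12 lists, with pairs in 15 of 148 genes (10.1%). 5 of their 16 pairs were called (57.8% of all pairs). tmem30b.L, a partner of lipid flippases, had a 5′ level of 44.2% (1454 reads) and a 3′ level of 50.7% (1981 reads) at 28 nt, a small difference that this depth resolved (Fisher's exact test, adjusted p = 0.00039). slc1a5.L, a carrier of neutral amino acids, had a 5′ level of 11.8% (296 reads) and a 3′ level of 11.7% (446 reads) at 41 nt and no call. Adhesion, junction and matrix genes had pairs in 5 of 38 (13.2%), with 4 of 6 called, read against the same 57.8%. fn1.S, fibronectin of the extracellular matrix, had a 5′ level of 75.9% (581 reads) and a 3′ level of 18.2% (773 reads) at 38 nt (Fisher's exact test, adjusted p = 2.48e-103). plxnb3.S, a receptor for semaphorins, had a 5′ level of 13.8% and a 3′ level of 34.8% on 138 reads each at 45 nt, with Cagtg at the 3′ site (Fisher's exact test, adjusted p = 0.000172).

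At stage 25 almost no clustered site was listed. The stage 25 list held 45 sites and 4 consecutive pairs, the closest of them 862 nt apart, so it contained no clustered pair. Of the 1262 clustered sites 2 were listed at stage 25 (0.158%, Wilson interval 0.0435 to 0.576), and of the 14971 other sites 34 (0.227%, 0.163 to 0.317). The intervals overlap, so clustered and other sites were not distinguished in this. A site missing at stage 25 may have been below the minimum level or the minimum coverage, and fewer methylated molecules and fewer transcripts of a gene cannot be told apart in these lists.

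The site of LOC108708216 at 79697332 on the plus strand of 2L, which reads Caggg, was at 15.9% (8.86 to 26.8, 63 reads) at stage 25 and 67.6% (61.1 to 73.4, 219 reads) at stage 0. It was lower at stage 25 by 51.7 percentage points (Fisher's exact test over the 36 sites of both lists, adjusted p = 3.45e-13), as were 69.4% of these 36 sites, while 0 of the 36 were higher. Its neighbour in LOC108708216, 46 nt 5′, was at 15.1% (166 reads) at stage 0 and was not in the stage 25 list. The site of grn.L, progranulin, at 5047424 on the minus strand of 9_10L, which reads Ctcca, was at 11.1% (5.96 to 19.8, 81 reads) at stage 25 and 15.7% (12.1 to 20.1, 319 reads) at stage 0, which were not distinguished (Fisher's exact test, adjusted p = 0.442). The neighbouring grn.L site, 23 nt 3′ and at 18.1% (309 reads) at stage 0, was not in the stage 25 list. In both genes, then, 1 site of the pair was listed at stage 25 and the other was not.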

How the data were processed

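RNA bisulfite sequencing of polyadenylated RNA was deposited as 1 list of called sites for each stage, with the 2 libraries of a stage combined. The authors used cutadapt and Trimmomatic for trimming and HISAT2 for mapping (version 2.10 in the submitters' processing notes), on X. laevis v9.2. According to the paper, reads left unmapped or mapped to several places then went to Bowtie2 on the converted transcriptome. Reads that kept many C bases were removed before calling, and with them reads carrying many true m5C. The part of this filter in the number and levels of clustered sites was not tested. Deposited coverage values are counts of reads with C or T, the deposited level column a fraction, given here in percent, and the deposited p-value column the authors' p-value of the call, used only for an overview. Coverage times level was whole within 0.0001 reads at all 16233 and 45 sites, and gave the C reads.

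Pairs were built as described above, with distances in genomic nt. C and T reads of both sites of a pair were tested by a two-sided Fisher's exact test (Benjamini-Hochberg over all 8662 consecutive pairs, threshold 0.05), and sites of both stages likewise over 36 sites. Intervals are 95% Wilson intervals. Both cover counting error only, since the reads carry no molecular identifiers and no replicate values were at hand. Medians, shares and correlations over sites are descriptions. The procedure was tested on simulated data. The tools were scipy 1.17.1, pandas 2.3.3 and numpy 2.4.6 under Python 3.11.15, and figures were drawn with matplotlib 3.10.9.

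Members and gene lists were chosen with earlier results of these data known. Named genes are, with at most 1 pair a gene, the 5 pairs with the highest smaller lower bound, the 5 with the largest difference in each direction and the 5 with the highest smaller coverage, then the 5 clusters with the most sites, homeologs of equal spacing, sites listed at stage 25, pairs with letters for both sites, and up to 2 genes a list by smaller coverage. A few others, named after their values were seen, illustrate an extreme or a near-equal spacing. RefSeq names came from Xenopus_laevis_v10.1 and no coordinates were taken from it. Some pairs that this rule selects are not reported here. Alternatives were a coverage minimum of 50 or 100 reads, a level minimum of 20% or 30%, the other order of the pairing steps, pairing without regard to the gene, assembled chromosomes only, pairs of similar coverage, a minimum difference, and 1 site or pair a gene.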

Additional observations from a re-analysis of the deposited data

How the results depend on the processing

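No paired analysis was possible because the authors combined both libraries of a stage in 1 list, and for the same reason no library could be left out. The 647 pairs became 395 with at least 100 reads a site, 193 with a level minimum of 20% and 80 with one of 30%. Under these level minimums the calls within pairs became 120 (62.2% of the clustered pairs, beside 59.6% of all) and 55 (68.8%, beside 59.8% of all), and the median level of clustered sites became 35.1% (36.2% for others) and 50.2% (49.0% for others), as fewer low sites entered. The rho of levels within pairs became 0.126 at the 20% minimum and -0.011 at the 30% minimum. Homeologs of equal spacing numbered 4, against 1 with 100 reads, 1 at 20% and 0 at 30%, and 8 when a gap of up to 3 nt was allowed. Clustered sites listed at stage 25 numbered 2, against 0 at 20% and 0 at 30%. The other planned settings moved no count by more than 1.5 times, with 563 pairs and 356 calls at 50 reads and 330 calls among 554 pairs of similar coverage. Both orders of the pairing steps gave the same 647 pairs. Settings chosen after seeing the data gave 349 calls among 576 pairs at 11 to 50 nt and a median level of 21.2% without clusters of 3 or more sites. The calls also depend on depth, as 42.9% of pairs with a site of 20 to 49 reads and 79.3% of those with 500 reads or more were called. Counting intervals leave out variation between embryos and libraries, which these lists do not show.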
